A study of Mus musculus with 6 samples.

Results

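The SLC25 family, the solute carriers of the mitochondrial inner membrane, was followed in brown adipose tissue as the rows of the gene count table whose symbol starts with Slc25a and a number. There were 47 such rows among 24062, and 39 of them passed the filter on low counts. The tissue came from male C57BL/6 mice aged 12 weeks. Of the 6 mice, 3 were labelled FAM195A Knock out and 3 FAM195A heterozygous, so by their labels the animals of both groups carry a disrupted copy, and no group labelled wild type was analysed here. The sources used here give neither the way the allele was made nor the housing temperature. The series describes mice that lack FAM195A, an RNA-binding protein of stress granules studied for heat production in the cold.

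SLC25 carriers share a fold of repeated transmembrane modules and move nucleotides, phosphate, carboxylates, amino acids, acylcarnitines and cofactors across a membrane that is otherwise closed to them. They set what enters and leaves the matrix, and so couple the citrate cycle, fatty acid oxidation and ATP synthesis to the rest of the cell. Brown fat oxidises fatty acids, glucose and branched-chain amino acids for heat. The uncoupling protein Ucp1 belongs to the same protein family under another symbol. The carnitine carrier Slc25a20 and the branched-chain amino acid carrier Slc25a44 serve that fuel supply. The ADP/ATP carriers Slc25a4 and Slc25a5 exchange ADP for ATP.

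Reads counted in genes ran from 22418031 to 25084627 in the knockout-labelled libraries and from 18781401 to 20471963 in the heterozygous-labelled ones. Of these, 120105 to 148770 fell on SLC25 members in the knockout-labelled libraries and 115274 to 127873 in the heterozygous-labelled ones. Library totals, with reads outside genes included, overlapped, at 40280066 to 45792698 and 41000243 to 44666625. Reads in genes made up 51.0% to 58.3% of the totals in knockout-labelled libraries and 43.9% to 48.4% in heterozygous-labelled ones. Aligned reads in no gene made up 21.5% to 26.6% and 27.5% to 29.9%. The cause of this difference was not tested. The targeted gene, Fam195a, stood at 50.5, 82.0 and 81.3 CPM in knockout 1, 2 and 3, against 69.0, 70.5 and 103 CPM in heterozygous 1, 2 and 3, with a log2 fold change of -0.18 (95% interval -0.745 to 0.384, edgeR quasi-likelihood test, adjusted p = 0.896). CPM is a gene's read count scaled to its library's size. This transcript does not set the groups apart, so each direction below is that of libraries labelled knockout relative to libraries labelled heterozygous. Skeletal muscle markers set the groups apart: their summed level over 20 genes was 6744, 3880 and 3802 CPM in knockout 1, 2 and 3, against 10839, 24533 and 31658 CPM in heterozygous 1, 2 and 3, and none of the 20 was at 0. All 20 were lower without overlap, beside 9.89% of all tested genes, with a median log2 fold change of -2.21. At an adjusted p of 0.05 edgeR and limma-voom called 0 of them, with 20 at an unadjusted p under 0.05 in each. By edgeR 12.1% of all tested genes had such a p. DESeq2 called all 20, beside 4.25% of all genes it tested. Brown adipocyte markers, 10 genes, summed to between 9151 and 13128 CPM in knockout-labelled libraries and between 9071 and 11451 CPM in heterozygous-labelled ones, most of it from Ucp1 and Cidea. Of these 10, Elovl3, a fatty acid elongase of brown fat, rose (log2 1.03, edgeR adjusted p = 0.0418). That call was lost without knockout 1, knockout 2 or heterozygous 2, where edgeR called no gene at all. Cidea, a lipid droplet protein, was higher without overlap (log2 0.42, edgeR adjusted p = 0.421). These were the only 2 above 0. The other 8 were below 0 with overlapping groups, among them Ppargc1a (log2 -0.79) and Dio2 (log2 -0.70). The levels of Ppargc1a and Dio2 also differed with the prefix of the library titles, as given further below. The median log2 fold change of the 10 was -0.11. Library titles carry the prefix RE for knockout 3 and heterozygous 3 and RF for the other 4, and the labels do not say what it means. The labels' protocols give 3 mice per genotype, so p-values measure the spread between mice.

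The family is spread over 19 chromosomes, with 5 members on chromosome 11 and 4 on the X chromosome. Slc25a12, the aspartate-glutamate carrier with the lowest fold change of the family, occupies bases 71271063 to 71367749 of chromosome 2, minus strand (GENCODE M21 on GRCm38), with merged exons of 6351 bases. Slc25a4, the ADP/ATP carrier of heart and muscle, occupies bases 46206797 to 46211284 of chromosome 8, minus strand. Its ubiquitous counterpart Slc25a5 occupies bases 36795651 to 36798807 of the X chromosome, plus strand. The promoter windows of these 3 genes are shown because the levels of these carriers are followed through the results. Of the 47 members, 36 have an entry in the RefSeq promoter table (GRCm38.p6), which gives 250 bases before and 50 after the start RefSeq assigns. That start differs from the GENCODE one: most of the Slc25a4 window lies inside the GENCODE span given above, and the Slc25a5 window ends before the GENCODE span begins. Capitals mark the letters CANNTG (E-box), CCAAT and TATAA on either strand. These letters are in 72.3%, 37.4% and 24.8% of 32544 promoter windows of the same length, and a match is a description of the letters only.
Slc25a12, minus strand, chr2:71367706-71368005: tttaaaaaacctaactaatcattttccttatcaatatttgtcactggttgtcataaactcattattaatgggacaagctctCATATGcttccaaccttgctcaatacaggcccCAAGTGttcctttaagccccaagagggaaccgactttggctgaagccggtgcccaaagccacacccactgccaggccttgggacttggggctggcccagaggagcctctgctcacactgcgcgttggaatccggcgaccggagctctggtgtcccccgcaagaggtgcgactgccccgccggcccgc
Slc25a4, minus strand, chr8:46211013-46211312: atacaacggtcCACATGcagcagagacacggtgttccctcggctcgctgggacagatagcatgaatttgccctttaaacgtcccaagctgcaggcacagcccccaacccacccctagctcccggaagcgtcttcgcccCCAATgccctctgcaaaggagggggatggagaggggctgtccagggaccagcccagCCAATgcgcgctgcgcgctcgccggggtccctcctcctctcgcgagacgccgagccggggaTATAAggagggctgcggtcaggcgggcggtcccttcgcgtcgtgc
Slc25a5, plus strand, chrX:36795347-36795646: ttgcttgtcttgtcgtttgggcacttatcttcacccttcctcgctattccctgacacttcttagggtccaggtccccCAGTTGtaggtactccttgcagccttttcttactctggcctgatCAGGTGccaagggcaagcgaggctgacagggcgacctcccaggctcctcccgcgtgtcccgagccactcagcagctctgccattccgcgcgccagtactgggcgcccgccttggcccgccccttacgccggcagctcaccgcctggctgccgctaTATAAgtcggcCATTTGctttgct
The Slc25a12 window holds 2 E-boxes and neither of the other motifs. The Slc25a4 window holds 1 E-box, 2 CCAAT and 1 TATAA, and the Slc25a5 window 3 E-boxes and 1 TATAA.

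Slc25a4 and Slc25a5 encode proteins of the same function, and their reads could be confused if the transcripts were alike. Their coding sequences, 894 bases each, are identical at 698 aligned bases and differ at 190 (78.6% identical). The longest run they share, bases 322 to 341 of both coding sequences, is 20 bases long and is shown because any longer read covering it differs between the genes.
Shared run of Slc25a4 and Slc25a5: cagttctggcgctactttgc
No window of 50 bases is shared. Slc25a5 has 1 pseudogene named after it in GENCODE M21, so its reads may be split with that copy.

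Per length of exon, the citrate carrier Slc25a1, which exports citrate for fatty acid synthesis, was the highest member. It averaged 596 ± 72.7 CPM per kb of merged exon in knockout-labelled libraries and 569 ± 271 CPM per kb in heterozygous-labelled libraries (SD, n = 3 each). Slc25a5 (352 ± 47.8 against 285 ± 20.6 CPM per kb), Slc25a20 (284 ± 70.4 against 293 ± 51.8) and Slc25a4 (219 ± 23.8 against 332 ± 97.3) followed in this order of means over all 6 libraries. The ranges of these 3 over the 6 libraries overlap, so their order is not settled, and Slc25a1 in heterozygous 3, at 296 CPM per kb, also lay within their range. Together these 4 held 53.7% of the family's summed level per kb. Below them stood Slc25a39, a carrier needed for mitochondrial glutathione, Slc25a51, the NAD+ carrier, and Slc25a3, the phosphate carrier, at mean levels of 186, 143 and 129 CPM per kb. The lowest tested member, Slc25a53, stood at 0.424 CPM per kb.

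**Figure D1:**
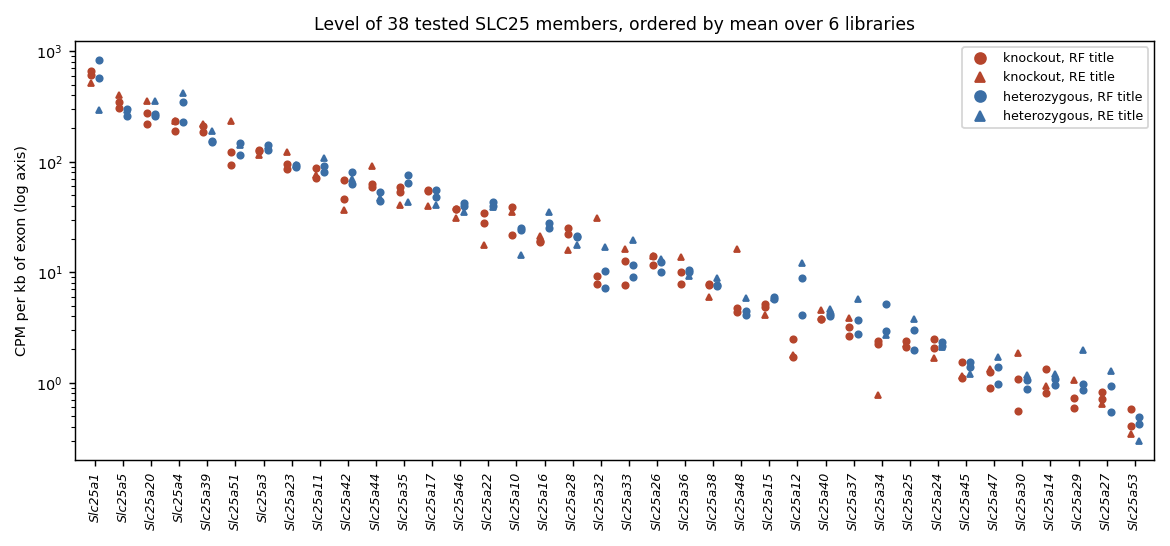
Level of 38 tested SLC25 members in CPM per kb of merged exon (log axis), 1 point per library, knockout-labelled in red left of heterozygous-labelled in blue, triangles for RE-titled libraries. Genes run from Slc25a1 to Slc25a53 by their mean over 6 libraries, and for most members the ranges of the groups overlap, some by a single library.

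The 8 members that were not tested had at most 12 reads in any library. They were Slc25a13, the aspartate-glutamate carrier of liver (6 to 12 reads), Slc25a18, a glutamate carrier, Slc25a2, an ornithine carrier, Slc25a21, the oxodicarboxylate carrier, Slc25a31, the ADP/ATP carrier of testis, and Slc25a43. Slc25a41 and Slc25a54 had no read in any library. For these 8 the counts were too low for the main test, so a difference in them could not be judged. The ones with reads entered the DESeq2 fit and the edgeR fit with no filter, and none of them was called.

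No SLC25 member passed the threshold in the comparison of knockout-labelled with heterozygous-labelled libraries. By edgeR's quasi-likelihood test at a Benjamini-Hochberg adjusted p of 0.05 over all genes, 0 of 39 tested members were called, where 0.586% of 13300 tested genes were called (0.534% fell and 0.0526% rose). DESeq2 called 1 member, Slc25a12 (adjusted p = 4.86e-06), where it called 4.25% of its 17759 genes, and limma-voom with quality weights called 0, where it called 1.46% of all. At an unadjusted p under 0.05, 5 members passed by limma-voom and 5 by edgeR, the edgeR ones being 4 lower and 1 higher, where 12.1% of all tested genes did. The 3 libraries of each label did not overlap for 7 of 39 members (17.9%), 5 lower and 2 higher, where 18% of all tested genes did so (9.89% lower and 8.11% higher). The members' median log2 fold change was -0.10, with 23 below 0 and 16 above, beside 0.02 over all genes tested. The muscle marker sums given above also separate the labels, and their part in the members' differences was not tested. For Slc25a12 and Slc25a4 the levels set against these sums are given below as a description.

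Summed over the 47 members, the level was 5381, 5804 and 6555 CPM in knockout 1, 2 and 3, against 6266, 5811 and 5901 CPM in heterozygous 1, 2 and 3. The knockout-labelled libraries included both the lowest and the highest sum, and the groups overlap. The means were 5913 ± 594 and 5993 ± 241 CPM (SD, n = 3 each; exact permutation test, two-sided p = 0.8, where 0.1 is the smallest that 3 against 3 allows).

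**Figure D2:**
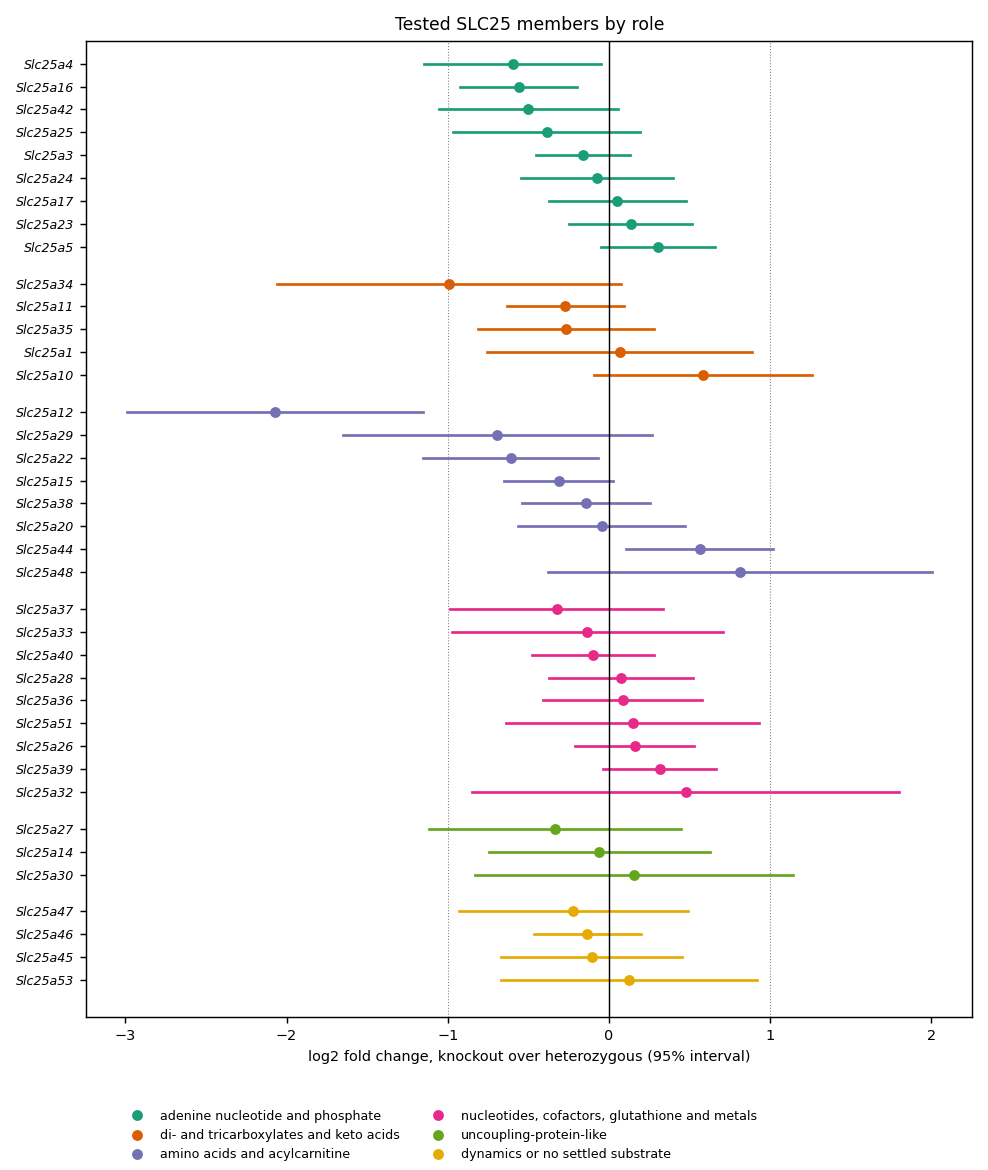
Log2 fold change of knockout-labelled over heterozygous-labelled libraries for 38 tested members, with 95% intervals from the edgeR fit, grouped by role; dotted lines mark a 2-fold change either way. Slc25a12 stands lowest at -2.07, and the intervals of 26 of the members drawn lie wholly within the dotted lines.

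The intervals bound how large a difference could be. For 27 of 39 members the 95% interval of the fold change lay within a 2-fold change in either direction. The interval reached a 2-fold lower level for 7 members and a 2-fold higher level for 5. It did not include 0 on the log2 scale for 5, before any adjustment.

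Among the carriers of adenine nucleotides, phosphate and coenzyme A, 9 of 11 members were tested, with log2 fold changes from -0.60 to 0.30 and a median of -0.16. Slc25a4 stood at 369, 445 and 451 CPM in knockout 1, 2 and 3, against 439, 666 and 810 CPM in heterozygous 1, 2 and 3. Heterozygous 2 and 3 were the high libraries, and heterozygous 1 lay within the knockout-labelled range. Its log2 fold change was -0.60 (SE 0.234, adjusted p = 0.354), and -0.39 without heterozygous 3. Slc25a5 stood at 379, 433 and 497 CPM in knockout 1, 2 and 3, against 371, 324 and 365 CPM in heterozygous 1, 2 and 3. All 3 knockout-labelled libraries were above all 3 others, by a small margin, and the log2 fold change was 0.30 (SE 0.151, adjusted p = 0.516).

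Of 7 ratios between paralogs 4 did not overlap between the labels, 2 of them with a partner that failed the filter on low counts, and no share over other gene pairs was computed. The log2 ratio of Slc25a4 to Slc25a5 in CPM, with 0.5 CPM added to each, was -0.04, 0.04 and -0.14 in knockout 1, 2 and 3, against 0.24, 1.04 and 1.15 in heterozygous 1, 2 and 3. The groups do not overlap, as those of Slc25a5 alone do not, and the heterozygous-labelled libraries spread over a wider range (means -0.05 ± 0.09 and 0.81 ± 0.49, SD, n = 3 each). The 2 highest ratios were those of heterozygous 2 and 3, which also have the highest muscle marker sums, and the part of muscle RNA in it was not tested. In tissue samples fewer cells of a type and less RNA per cell cannot be told apart.

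Slc25a16, whose yeast relative is needed for coenzyme A in mitochondria, stood at 59.1, 60.7 and 67.5 CPM in knockout 1, 2 and 3, against 87.6, 78.3 and 110 CPM in heterozygous 1, 2 and 3. The groups did not overlap, and the knockout-labelled libraries lay close together. Its log2 fold change was -0.56 (SE 0.155, adjusted p = 0.157), and it was the 1 member called with the title prefix as a covariate (-0.55, adjusted p = 0.0449), where 2.28% of all tested genes were called. Slc25a42, which exchanges coenzyme A and adenosine phosphates, stood at 146, 218 and 117 CPM in knockout 1, 2 and 3, against 199, 259 and 222 CPM in heterozygous 1, 2 and 3. Knockout 2 lay above heterozygous 1, so the groups overlap (log2 -0.50, SE 0.238, adjusted p = 0.486). Without knockout 2 the log2 fold change of Slc25a42 was -0.78, and without knockout 3 it was -0.33. The phosphate carrier Slc25a3, which supplies phosphate for ATP synthesis, had a log2 fold change of -0.16, and its groups overlap. The calcium-regulated ATP-Mg/phosphate carriers Slc25a23, Slc25a24 and Slc25a25 were at 0.13, -0.07 and -0.39, and the peroxisomal carrier Slc25a17 at 0.05.

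**Figure D3:**
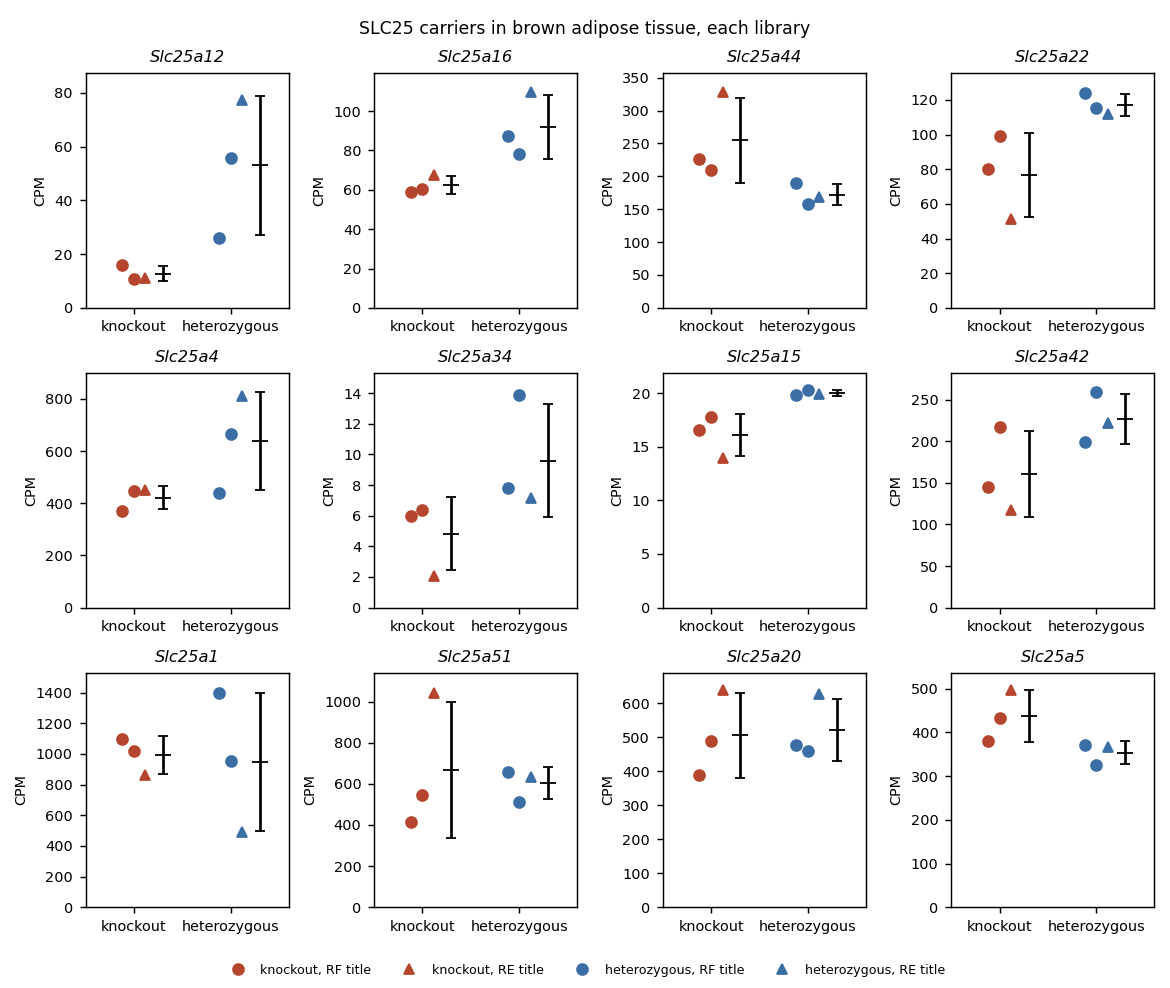
CPM of 12 SLC25 members in each library, knockout-labelled in red left of heterozygous-labelled in blue, with the mean and SD (n = 3) beside them; axes start at 0, and triangles are the RE-titled libraries. Slc25a12 lies between 10.8 and 15.8 CPM in the knockout-labelled libraries and between 25.9 and 77.3 CPM in the heterozygous-labelled ones. Slc25a20 overlaps between the labels.

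Among the carriers of di- and tricarboxylates and keto acids, 5 of 6 members were tested, with log2 fold changes from -0.99 to 0.58. Slc25a1 stood at 1100, 1018 and 861 CPM in knockout 1, 2 and 3, against 1395, 955 and 493 CPM in heterozygous 1, 2 and 3. The heterozygous-labelled libraries held both the highest and the lowest value. Its log2 fold change was 0.07 (SE 0.349, adjusted p = 0.977), and it ran from -0.24 without heterozygous 3 to 0.46 without heterozygous 1. Slc25a10, the dicarboxylate carrier, had a log2 fold change of 0.58 with overlapping groups, and Slc25a11, the oxoglutarate-malate carrier of the malate-aspartate shuttle, -0.27. Slc25a34, with no settled substrate, stood at 6.00, 6.36 and 2.08 CPM in knockout 1, 2 and 3, against 7.79, 13.9 and 7.15 CPM in heterozygous 1, 2 and 3. Each knockout-labelled library was below each heterozygous-labelled one, with a log2 fold change of -0.99 (SE 0.453, adjusted p = 0.466). Without heterozygous 2 the value for Slc25a34 was -0.63, and without knockout 3 it was -0.64. Slc25a35 was at -0.27; 1151 bases of its exons overlap Rangrf on the other strand, so its reads are uncertain unless strand was used in counting.

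Among the amino acid and acylcarnitine carriers, 8 of 11 members were tested, 6 of them below 0, with a median log2 fold change of -0.23. Slc25a12 passes aspartate out of the matrix in exchange for glutamate and so serves the malate-aspartate shuttle. It stood at 15.8, 10.8 and 11.2 CPM in knockout 1, 2 and 3, against 25.9, 55.9 and 77.3 CPM in heterozygous 1, 2 and 3. The groups did not overlap, and the heterozygous-labelled libraries differed among themselves by 2.99-fold. The means were 12.6 ± 2.78 and 53.0 ± 25.8 CPM (SD, n = 3 each), 4.21-fold lower in the fit (log2 -2.07, SE 0.391, 95% interval -2.99 to -1.15), with an adjusted p of 0.0736. Its p ranked 180 among all genes tested. The log2 fold change was -2.40 without heterozygous 1, where Slc25a12 passed (adjusted p = 0.012; 2.95% of all tested genes were called there), and -1.70 without heterozygous 3. Over all alternatives its adjusted p ran from 4.86e-06 to 0.273.

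Among the heterozygous-labelled libraries heterozygous 3 had the highest and heterozygous 1 the lowest value of both Slc25a12 and the summed muscle markers. Among the knockout-labelled ones knockout 1 had the highest of both. Knockout 2 and 3 were in opposite order, with muscle sums of 3880 and 3802 CPM and Slc25a12 at 10.8 and 11.2 CPM. Slc25a4 was likewise highest in heterozygous 3 and lowest of its label in heterozygous 1. In knockout 1, with the highest muscle sum of its label, Slc25a4 was lowest, at 369 CPM. Set against the summed muscle markers, Slc25a12 came to 2.35, 2.79 and 2.95 CPM per 1000 CPM of muscle markers in knockout 1, 2 and 3, against 2.39, 2.28 and 2.44 in heterozygous 1, 2 and 3. On this scale, chosen after the values were seen, the groups overlap (2.69 ± 0.31 and 2.37 ± 0.08, SD, n = 3 each). For Slc25a4 the same quantity was 54.7, 115 and 119 in knockout 1, 2 and 3, against 40.5, 27.2 and 25.6 in heterozygous 1, 2 and 3, with the knockout-labelled libraries all higher. The divisor is itself lower in all 3 knockout-labelled libraries. A gene with even CPM would therefore come out higher there on this scale, and the values are a description only. The part of muscle RNA in the levels of Slc25a12 and Slc25a4 was not tested.

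**Figure D4:**
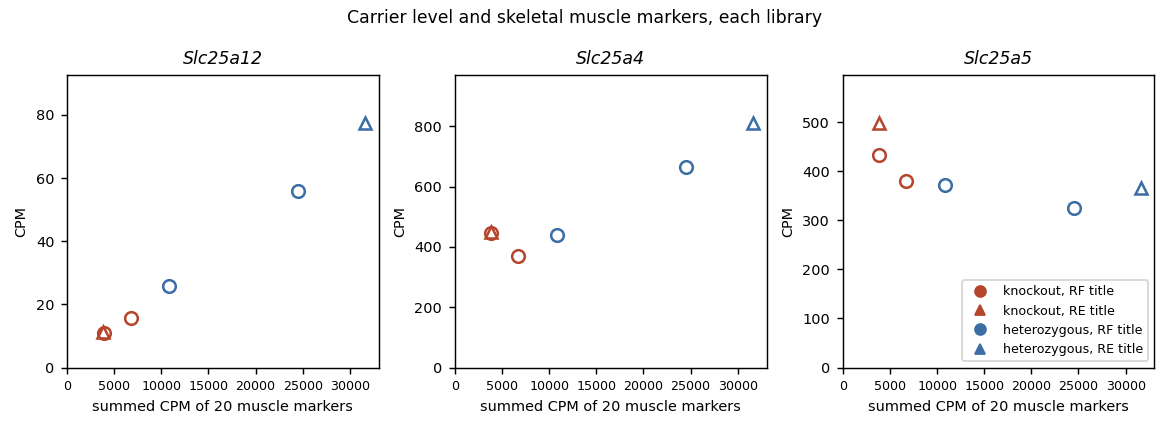
CPM of Slc25a12, Slc25a4 and Slc25a5 against the summed CPM of 20 skeletal muscle markers, 1 symbol per library, knockout-labelled in red and heterozygous-labelled in blue. In the knockout-labelled libraries, which have the lowest muscle sums, Slc25a12 lies between 10.8 and 15.8 CPM and Slc25a4 between 369 and 451 CPM. Both are highest at the muscle sum of 31658, at 77.3 and 810 CPM.

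Slc25a44, through which brown fat takes up branched-chain amino acids into mitochondria, was the 1 member with an unadjusted p under 0.05 and a higher level. It stood at 226, 209 and 328 CPM in knockout 1, 2 and 3, against 190, 159 and 168 CPM in heterozygous 1, 2 and 3. The groups did not overlap, and knockout 3 was the highest library. The log2 fold change was 0.56 (SE 0.195, adjusted p = 0.273), and 0.33 without knockout 3. The mitochondrial glutamate carrier Slc25a22 stood at 79.9, 99.4 and 51.0 CPM in knockout 1, 2 and 3, against 124, 115 and 112 CPM in heterozygous 1, 2 and 3. Its knockout-labelled libraries were all lower and more spread (log2 -0.61, SE 0.232, adjusted p = 0.339), and the value was -0.39 without knockout 3. The ornithine carrier Slc25a15 stood at 16.6, 17.8 and 14.0 CPM in knockout 1, 2 and 3, against 19.8, 20.3 and 19.9 CPM in heterozygous 1, 2 and 3, also without overlap (log2 -0.31, SE 0.145, adjusted p = 0.473).

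Slc25a20, which brings acylcarnitines into the matrix for fatty acid oxidation, stood at 389, 490 and 639 CPM in knockout 1, 2 and 3, against 479, 459 and 628 CPM in heterozygous 1, 2 and 3. The heterozygous-labelled range lay within the knockout-labelled one, with the RE-titled library highest in each. The log2 fold change was -0.05 (SE 0.221, 95% interval -0.561 to 0.471, adjusted p = 0.976). The basic amino acid carrier Slc25a29 and the glycine carrier Slc25a38, needed for heme synthesis, were at -0.69 and -0.14 with overlapping groups. Slc25a48, linked to choline import into mitochondria, had a log2 fold change of 0.81, which rested on knockout 3: the libraries stood at 15.9, 14.9 and 54.7 CPM in knockout 1, 2 and 3, against 15.1, 13.9 and 19.6 CPM in heterozygous 1, 2 and 3. The summed level of 5 white adipocyte markers, none at 0 throughout, was also highest in knockout 3. It was 103, 134 and 444 CPM in knockout 1, 2 and 3, against 91.1, 127 and 243 CPM in heterozygous 1, 2 and 3. Most of the sum in knockout 3 came from Lep, at 281 CPM. Nnat, at 39.2 CPM there, was higher in knockout 2, at 64.1 CPM. The part of white adipocyte RNA in the level of Slc25a48 was not tested.

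All 10 carriers of nucleotides, cofactors, glutathione and metals were tested, 7 above 0 and 3 below, with log2 fold changes between -0.325 and 0.475. In every one of the 10 the groups overlap. Slc25a51 stood at 414, 547 and 1041 CPM in knockout 1, 2 and 3, against 660, 513 and 634 CPM in heterozygous 1, 2 and 3. Knockout 3 alone was above the heterozygous-labelled range, and the log2 fold change of 0.15 (SE 0.333, adjusted p = 0.947) became -0.34 without it. The folate carrier Slc25a32 was at 0.475, the glutathione carrier Slc25a39 at 0.32 and its paralog Slc25a40 at -0.10. The log2 ratio of Slc25a39 to Slc25a40 reads was 4.84, 5.02 and 4.82 in knockout 1, 2 and 3, against 4.42, 4.45 and 4.57 in heterozygous 1, 2 and 3, without overlap. The iron importers Slc25a37 and Slc25a28, the mitoferrins, were at -0.325 and 0.07, the pyrimidine nucleotide carriers Slc25a33 and Slc25a36 at -0.14 and 0.08, and the S-adenosylmethionine carrier Slc25a26 at 0.16. Of these, the ratios Slc25a37 to Slc25a28 and Slc25a33 to Slc25a36 overlap between the labels, as does Slc25a42 to Slc25a16.

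The uncoupling-protein-like members Slc25a14, Slc25a27 and Slc25a30 had log2 fold changes of -0.06, -0.34 and 0.15 at mean levels of 1.91, 3.24 and 3.96 CPM. The remaining 4 tested members lay between -0.22 and 0.13. Among them Slc25a46, an outer-membrane protein of mitochondrial fission and fusion, was at -0.13, and Slc25a45, Slc25a47 and Slc25a53 have no settled substrate. In all 7 the groups overlap.

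Levels also differed with the title prefix. Both RE-titled libraries lay outside the range of the 4 RF-titled ones for 14 of 39 members (35.9%), 8 above and 6 below, beside 34.1% of all tested genes. The white adipocyte marker sums given above were likewise higher in both RE-titled libraries than in the 4 RF-titled ones. This held for Lep and Retn singly, but not for Nnat, Hoxc8 or Hoxc9. Of the brown adipocyte markers, Ucp1, Ppargc1a, Dio2, Prdm16 and Plin1 were lower in both RE-titled libraries than in every RF-titled one. Adipoq was higher, and Cidea, Elovl3, Cox7a1 and Ebf2 were not set apart. Ppargc1a stood at 64.2 and 87.4 CPM in knockout 3 and heterozygous 3, against 259 to 494 CPM in the RF-titled libraries. Dio2 stood at 94.6 and 77.7 CPM, against 269 to 541 CPM. The part of these markers in the differences by prefix was not tested. Slc25a32 stood at 183 and 100 CPM in the RE-titled knockout 3 and heterozygous 3, against 42.4 to 61.0 CPM in the RF-titled libraries. Slc25a1 stood at 861 and 493 CPM in the same 2 libraries, against 955 to 1395 CPM in the RF-titled ones. Slc25a20 and Slc25a48 were higher in the RE-titled libraries, and Slc25a35, Slc25a17, Slc25a28 and Slc25a46 lower. Within the RF-titled libraries the log2 ratio of mean CPM, with 0.5 CPM added, was -1.58 for Slc25a12 and 0.32 for Slc25a44, and in the RE-titled pair, with 1 library per label and no test, -2.73 and 0.96. The same ratios were -0.44 and -0.845 for Slc25a4, -0.47 and -0.70 for Slc25a16, and -0.41 and -1.13 for Slc25a22, the RF-titled value first and the RE-titled one after it.

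Of 5 proteins of the same family that go by other symbols, 1 passed by edgeR, beside 0.586% of all tested genes. Ucp3, the uncoupling protein of muscle and brown fat, stood at 93.2, 119 and 103 CPM in knockout 1, 2 and 3, against 206, 197 and 193 CPM in heterozygous 1, 2 and 3. The groups lay far apart and were narrow, and Ucp3 fell (log2 -0.92, SE 0.134, edgeR adjusted p = 0.0418). Ucp3 is also abundant in skeletal muscle, whose markers moved the same way, and the part of muscle RNA in its fall was not tested. DESeq2 and limma-voom called Ucp3 too, beside 4.25% and 1.46% of all genes these tools tested. The edgeR call held without heterozygous 1 (adjusted p = 0.0445) and was lost without any of the other 5 libraries (0.0589 to 0.193), at log2 fold changes from -1.02 to -0.84. Ucp2, which exchanges carbon metabolites in many tissues, was at 0.39 (adjusted p = 0.316), Ucp1, the heat-producing uncoupling protein, at -0.16 (adjusted p = 0.958) with its lowest levels in the 2 RE-titled libraries, Mtch1 at 0.25 and Mtch2, an outer-membrane insertase, at 0.06.

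**Figure D5:**
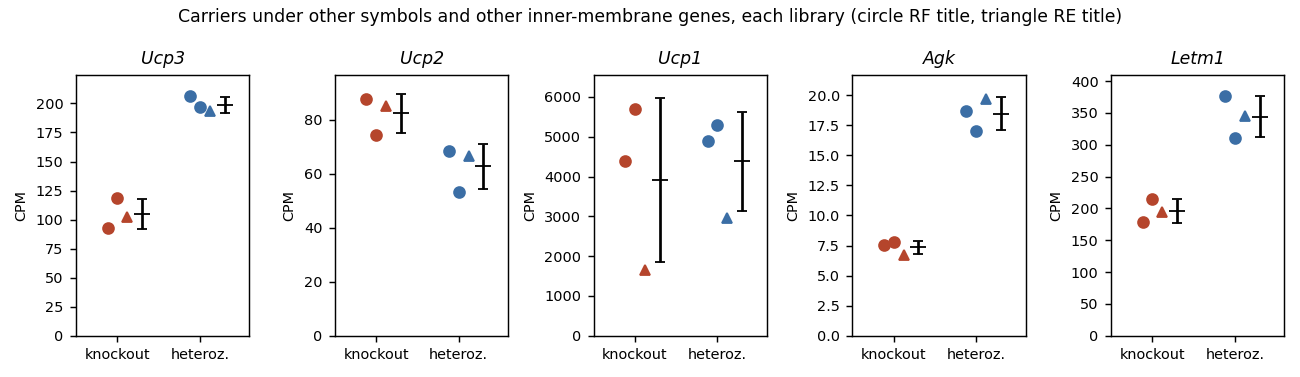
CPM of Ucp3, Ucp2, Ucp1, Agk and Letm1 in each library, knockout-labelled in red left of heterozygous-labelled in blue, with mean and SD (n = 3); axes start at 0. Agk lies between 6.74 and 7.76 CPM in the knockout-labelled libraries and between 17.0 and 19.7 CPM in the heterozygous-labelled ones, and Ucp1 overlaps between the labels.

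Of 10 genes of the route by which carriers enter the inner membrane, 1 passed by edgeR, beside 0.586% of all tested genes. Agk encodes a lipid kinase that is also a subunit of the translocase inserting SLC25 carriers. It stood at 7.57, 7.76 and 6.74 CPM in knockout 1, 2 and 3, against 18.7, 17.0 and 19.7 CPM in heterozygous 1, 2 and 3. The groups lay far apart and were narrow, and Agk fell (log2 -1.33, SE 0.152, 95% interval -1.68 to -0.97, edgeR adjusted p = 0.0248). The muscle marker sum was also lower in all 3 knockout-labelled libraries, and its part in the fall of Agk was not tested. DESeq2 and limma-voom called Agk too, beside 4.25% and 1.46% of all genes these tools tested. The edgeR call held without knockout 3 and without heterozygous 1 (adjusted p = 0.0261 and 0.0189) and was lost without knockout 1, knockout 2, heterozygous 2 or heterozygous 3 (0.0936 to 0.132), with log2 fold changes from -1.38 to -1.27 throughout. The other 9, among them the channel subunit Timm22, its partner Timm29 (counted as 1810026J23Rik), the chaperones Timm9 and Timm10 and the receptor Tomm70a, lay between -0.15 and 0.24.

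Of 20 other mitochondrial membrane transporters edgeR called 0, with a median log2 fold change of -0.11 and 8 at an unadjusted p under 0.05, 6 lower and 2 higher, beside 12.1% of all tested genes. DESeq2 and limma-voom each called 3 of the 20, all lower, among them Letm1 and Abcb10, beside 4.25% and 1.46% of all genes these tools tested. The labels did not overlap for 9 of the 20, beside 18% of all tested genes: 7 were lower, among them Letm1, Abcb10 and Mcu, and 2 were higher, Mpc2 and Tspo. Letm1, an inner-membrane cation exchanger, stood at 178, 216 and 194 CPM in knockout 1, 2 and 3, against 377, 311 and 345 CPM in heterozygous 1, 2 and 3 (log2 -0.81, adjusted p = 0.0631). The inner-membrane ABC transporter Abcb10 was at -0.67 (adjusted p = 0.0736) and the calcium uniporter Mcu at -0.59 (adjusted p = 0.143). Muscle marker sums were lower in the knockout-labelled libraries too, and their part in the lower levels of these transporters was not tested. The pyruvate carrier subunits Mpc1 and Mpc2 were at 0.27 and 0.40, and the voltage-dependent channels Vdac1, Vdac2 and Vdac3 of the outer membrane at -0.11, 0.01 and 0.05.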

How the data were processed

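Frozen brown adipose tissue of 3 mice per genotype was sequenced, per the labels' protocols. The authors deposited raw read counts per gene symbol, closed by HTSeq's summary lines. STAR 2.7.2b, SAMtools 1.9, HTSeq, Trim Galore, edgeR, Bowtie2 2.3.4.3 and the build mm10 stand, without roles, in the submitters' processing notes. No annotation, strand or multi-mapping rule is stated there. Reads with several alignments, kept out of the gene rows, made up 18.3% ± 1.26 of the column totals in knockout-labelled libraries and 22.9% ± 1.05 in heterozygous-labelled ones (SD, n = 3 each), so members with close copies may be undercounted unequally.

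Counts were tested on all genes in R 4.3.3 with edgeR 4.0.16 (genes kept by filterByExpr, minimum count 10 and total 15, TMM factors, robust quasi-likelihood F test on genotype, Benjamini-Hochberg adjustment at 0.05). The procedure was also run on simulated counts. These held no differences by muscle content or title prefix, so that run does not show how the test behaves under such differences. The 5 closing lines that name no gene were left out. Replicates were numbered in accession order, which pairs nothing; every 2 libraries differed by more than counting noise (chi-square over its degrees of freedom 41.8 to 324). CPM per kb used merged exons of GENCODE M21, an annotation of GRCm38, the assembly that the notes name as mm10; the authors' own annotation may differ. Log2 ratios between genes and within title prefixes had 0.5 CPM added.

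Full values are given for called members (there were none), the 8 uncalled members with the smallest p, the 4 with the highest CPM, and Slc25a44, Slc25a20, Slc25a1, Slc25a4 and Slc25a5; others appear in groups, and Slc25a48, Slc25a32 and the muscle scale were singled out after their values were seen. Members and lists were chosen with earlier results of these data known, so no list was tested as such. Alternatives were RLE or library-size scaling, other filters, each library left out, DESeq2 1.42.0, limma-voom 3.58.1, the prefix of the titles added to the model, only the RF-titled libraries, an adjusted p of 0.1, and muscle markers left out of the library sizes. Some genes of these lists, though counted, are not reported here by name.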

Additional observations from a re-analysis of the deposited data

How the results depend on the processing

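No paired analysis was possible because the library titles give the groups no shared replicate numbers. The count of SLC25 members called was 0 under RLE scaling, library size only, no filter, a mean CPM of at least 1, the RF-titled libraries alone, limma-voom and muscle markers left out of the library sizes. It was 1, lower, with DESeq2, at an adjusted p of 0.1 and with the prefix added to the model, and 0 to 1 with single libraries left out; none was called higher. The member median stayed between -0.17 and -0.03 and the summed level between -0.11 and 0.05 on the log2 scale. With single libraries left out, Fam195a ran from -0.29 to 0.033, with 0.017 without knockout 1 and 0.033 without heterozygous 3. Slc25a1 ran from -0.24 without heterozygous 3 to 0.46 without heterozygous 1, with -0.012 without knockout 1 and -0.15 in the RF-titled libraries. Slc25a51 ran from -0.34 without knockout 3 to 0.40 without knockout 1, with -0.29 in the RF-titled libraries and -0.18 by limma-voom. Slc25a20 ran from -0.26 without knockout 3 to 0.11 without knockout 1, with 0.11 without heterozygous 3. For these the cause was not tested.

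Over all genes, 71 were called lower and 7 higher. With single libraries left out the counts ran from 0 to 381 lower and from 0 to 19 higher, with 0 called without knockout 1, knockout 2 or heterozygous 2. They were 243 and 67 with the title prefix, 113 and 19 in the RF-titled libraries, 638 and 117 by DESeq2, 165 and 29 by limma-voom, 440 and 60 at an adjusted p of 0.1, and 13 higher with no filter. Low counts limit what can be said of the 8 members that the main fit did not test.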
